A study of Rattus norvegicus with 9 samples.

Results

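The Notch genes described here are 10 rat genes: the ligands Jag1, Jag2 and Dll4, the receptors Notch1, Notch2, Notch3 and Notch4, and the target genes Hes1, Hey1 and Heyl. They were chosen by name, as ligands, receptors and well known targets of the pathway, out of 32883 genes in the deposited table. The choice was made with earlier results of these data known. Of the 10, 9 were among the 14089 genes with enough reads to be tested. Hey1 did not, and is given by its counts. The samples were 9 livers, measured by bulk RNA-seq, in 3 groups of 3. The study's methods give male Sprague-Dawley rats, 8 to 11 weeks old, with no separate entry for the Normal group, which was labelled only as normal rats. The 6 other livers came from rats with acute-on-chronic liver failure (ACLF), whose common bile duct had been ligated for 21 days (BDL) and which then received lipopolysaccharide (LPS) at 0.25 mg/kg intraperitoneally. At 1 h after LPS all 6 were connected for 2 h to an extracorporeal circuit, and the livers were taken at 24 h after LPS. In the Empty group the circuit held neither cells nor beads. In the UTOpiA group it held a column of cellulose acetate beads for granulocyte-monocyte apheresis (GMA) and alginate capsules of human hepatocyte-like cells, made from gene-edited induced pluripotent stem cells. Normal rats received no treatment that the sources describe, so the bile duct ligation, LPS, anaesthesia and circuit cannot be told apart in any comparison with them. Both ACLF groups were sampled from animals still alive at that time. The UTOpiA group carried cells and beads at once, so the contribution of each cannot be told apart.

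Notch is a short-range signal between neighbouring cells. A ligand of the Jagged or Delta-like family on one cell binds a Notch receptor on the next, the receptor is cut by a sheddase and by gamma-secretase, and its freed intracellular part joins the DNA-binding protein RBPJ and Mastermind to switch on transcriptional repressors of the Hes and Hey families. In liver the pathway is known for bile duct formation, where Jag1 signals to Notch2, and for vessels, where Dll4, Notch1 and Notch4 are endothelial and Notch3 and Heyl belong to the mural cells around them.

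The stretch of 250 bases just before the annotated start was examined for the letters TGGGAA, the core that RBPJ recognises, on both strands. The RefSeq promoter table for build GRCr8 held 8 of the 10 genes. Of these, 2 had a match, Hes1 and Notch4, each with 2, while 22.1% of all 33469 promoters in that table held at least 1. The longer form GTGGGAA, which contains TGGGAA, was present in 5.27% of promoters and, among these genes, in Hes1 alone. The 4 genes with the smallest adjusted p in Empty against Normal are shown, so that the promoters of the genes that rose can be read beside their values. Each runs 5′ to 3′ along the gene's strand, and capitals mark TGGGAA or its reverse complement TTCCCA. In Hes1 the first run of capitals also takes in the leading G of GTGGGAA.
Hes1 (chr11:84213046-84213295, minus strand): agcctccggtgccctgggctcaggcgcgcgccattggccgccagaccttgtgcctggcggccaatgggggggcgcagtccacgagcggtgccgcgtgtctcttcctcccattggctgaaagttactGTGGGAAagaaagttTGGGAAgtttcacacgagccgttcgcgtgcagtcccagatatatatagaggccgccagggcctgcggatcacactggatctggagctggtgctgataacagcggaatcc
Notch4 (chr20:4189073-4189322, minus strand): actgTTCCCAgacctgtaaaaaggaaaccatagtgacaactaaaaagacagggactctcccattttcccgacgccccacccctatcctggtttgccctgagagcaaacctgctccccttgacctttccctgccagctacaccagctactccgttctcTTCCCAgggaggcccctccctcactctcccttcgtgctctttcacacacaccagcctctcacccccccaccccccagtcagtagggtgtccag
Heyl (chr5:140793021-140793270, plus strand): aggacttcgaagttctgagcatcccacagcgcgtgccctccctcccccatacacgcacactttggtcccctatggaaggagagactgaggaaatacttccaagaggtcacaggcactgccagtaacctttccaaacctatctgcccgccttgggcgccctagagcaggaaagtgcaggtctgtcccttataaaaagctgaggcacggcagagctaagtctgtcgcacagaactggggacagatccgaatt
Jag1 (chr3:144894884-144895133, minus strand): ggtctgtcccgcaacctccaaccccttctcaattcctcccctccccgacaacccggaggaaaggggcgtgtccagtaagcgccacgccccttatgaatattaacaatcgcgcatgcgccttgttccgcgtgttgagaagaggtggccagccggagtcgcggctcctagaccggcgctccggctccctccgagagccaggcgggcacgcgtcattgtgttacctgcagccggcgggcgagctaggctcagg
Counted from the start, with -1 the base just before it, the Hes1 matches span -123 to -118 and -109 to -104 and read along the gene, and the first of them is also the GTGGGAA match. Notch4 is on the plus strand in rn6, as are its neighbours Ager, Pbx2 and Gpsm3, and all 4 are on the minus strand in GRCr8. The Notch4 matches span -246 to -241 and -93 to -88 and read on the opposite strand. The Heyl and Jag1 windows hold no such letters. A match is a run of letters and was not tested as a binding site.

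The libraries held 14241172 to 15205300 counts in the Normal group, 15775439 to 17321677 in Empty and 14494047 to 16146265 in UTOpiA. Levels are given per length as TPM (transcript abundance corrected for gene length and library size, from the deposited table), and fold changes come from edgeR on the counts with TMM scaling. The 2 scales are not the same. Reads of the albumin gene were 13.3% to 14.9% of all counts in the Normal group but only 1.54% to 3.91% in ACLF, and on the TPM scale the median of all tested genes was itself higher in Empty than in Normal by 0.54 log2, against 0.04 with TMM. In UTOpiA against Empty the median was -0.20 on the TPM scale. A difference in TPM should be read against that shift. A gene was called at an adjusted p under 0.05 and a change above 2-fold. In bulk tissue, fewer cells of a type and less RNA per cell cannot be told apart.

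Among the ligands, Jag1 and Jag2 rose in Empty livers and Dll4 did not pass the test. Jag1, the Jagged ligand of the portal tract and the bile ducts, was measured at 1.30, 1.06 and 0.458 TPM in Normal livers. In Empty livers it stood at 5.31, 10.6 and 10 TPM, and in UTOpiA livers at 2.54, 7.93 and 1.38 TPM. All 6 ACLF livers lay above all 3 Normal livers, but the lowest UTOpiA liver was close to the highest Normal one, while UTOpiA replicate 2 lay within the Empty range. In Empty against Normal the log2 fold change of Jag1 was 2.67 (SE 0.56, edgeR adjusted p = 0.00465), and the call held under every alternative run.

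Jag2, the second Jagged ligand, was scarce in Normal livers, at 0.0276, 0.104 and 0.410 TPM, which is 21 reads over the group. It was measured at 1.26, 1.03 and 2.16 TPM in Empty livers and at 1.44, 2.94 and 0.455 TPM in UTOpiA livers. The groups did not overlap between Normal and ACLF, although Normal replicate 3 and UTOpiA replicate 3 differed by little. The log2 fold change in Empty against Normal was 2.47 (SE 0.78, edgeR adjusted p = 0.0272), the least secure of the calls with that of Notch3: adjusted p ranged from 0.0034 to 0.0943 over the alternative settings, and the call was lost without Normal replicate 1 (adjusted p = 0.0703), without Normal replicate 2 (adjusted p = 0.0943) and without Empty replicate 3 (adjusted p = 0.0765). Its size rested on Normal replicate 3, the highest of that group: the log2 fold change was 3.90 without that liver and 1.97 without Normal replicate 1.

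Dll4, the Delta-like ligand of vessel endothelium, was almost constant in Normal livers at 1.21, 1.21 and 1.17 TPM. It read 1.32, 2.19 and 3.24 TPM in Empty livers and 1.15, 2.07 and 1.26 TPM in UTOpiA livers. Empty livers lay above Normal livers in TPM, but the groups overlapped once scaled by TMM, and the log2 fold change of 0.37 (95% interval -0.33 to 1.07) had an edgeR adjusted p of 0.356.

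Among the receptors, Notch3 and Notch4 rose in Empty livers while the 2 most abundant ones, Notch2 and Notch1, did not pass the test. Notch2, the receptor of bile duct development, was the most abundant receptor in every liver. It stood at 4.96, 5.92 and 4.88 TPM in Normal, 7.82, 7.07 and 11.1 TPM in Empty and 6.07, 10 and 5.26 TPM in UTOpiA livers. Notch1, expressed in endothelium and other cells, followed with 2.26, 2.84 and 1.86 TPM in Normal, 3.85, 4.22 and 4.28 TPM in Empty and 2.91, 4.44 and 2.78 TPM in UTOpiA livers. For both genes the Empty livers lay above the Normal ones in TPM, with mean ratios of 1.65 for Notch2 and 1.77 for Notch1, on a scale where the median of all genes was also higher. With TMM the groups overlapped, and the log2 fold changes in Empty against Normal were 0.19 (95% interval -0.21 to 0.59) for Notch2 and 0.31 (95% interval -0.08 to 0.69) for Notch1, with edgeR adjusted p of 0.399 and 0.164.

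Notch4, the receptor most restricted to endothelium, stood at 0.580, 0.764 and 0.664 TPM in Normal livers, at 2.84, 2.27 and 2.88 TPM in Empty livers and at 1.86, 3.69 and 1.85 TPM in UTOpiA livers. No ACLF liver came near the Normal range. The log2 fold change in Empty against Normal was 1.47 (SE 0.25, edgeR adjusted p = 0.0013), and the call held under every alternative run. A second gene, LOC103689965, overlaps Notch4 on the opposite strand, with 3567 to 5586 counts in Normal, 5776 to 11803 in Empty and 6294 to 9904 in UTOpiA livers, against 109 reads of Notch4 over the 3 Normal livers. The study's methods name a directional library kit, while the labels name a different kit. Whether counting used the strand is not given in the sources used here, so reads of this pair may not have been told apart.

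Notch3, the receptor of mural cells such as vascular smooth muscle, was the least abundant receptor, at 0.444, 0.273 and 0.254 TPM in Normal livers. It stood at 0.837, 1.04 and 1.69 TPM in Empty livers and at 1.12, 1.56 and 0.519 TPM in UTOpiA livers. The ACLF livers lay above the Normal ones, UTOpiA replicate 3 by the smallest margin. The log2 fold change in Empty against Normal was 1.33 (SE 0.38, edgeR adjusted p = 0.0172), and the call was lost without Normal replicate 2 (adjusted p = 0.0635), without Normal replicate 3 (adjusted p = 0.0636) and without Empty replicate 3 (adjusted p = 0.0667), in a range of 0.0042 to 0.0667 over the alternatives. It also fell under 2-fold with limma on log2(TPM + 1) without a filter (0.71).

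Among the targets, Hes1 and Heyl rose in Empty livers, Heyl with the largest change of the 9 tested genes. Hes1, a repressor that is the classical direct target of Notch and also responds to other signals, was the most abundant of the 10 genes in 8 of 9 livers, Notch2 being higher in Normal replicate 2. It stood at 6.92, 5.54 and 9.40 TPM in Normal livers, 22.7, 32.8 and 33.7 TPM in Empty livers and 21.02, 19.8 and 10.4 TPM in UTOpiA livers. The 3 groups were ordered without overlap, with UTOpiA between the others. The log2 fold change in Empty against Normal was 1.495 (SE 0.25, edgeR adjusted p = 0.00129), and its call held under every alternative run.

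Heyl, a target prominent in mural cells, rose from 0.349, 0.556 and 0.199 TPM in Normal livers to 3.66, 11.5 and 8.36 TPM in Empty livers, and stood at 6.004, 7.52 and 3.47 TPM in UTOpiA livers. Every ACLF liver was far above the Normal range, and the spread was widest within Empty. The log2 fold change in Empty against Normal was 3.88 (SE 0.47, edgeR adjusted p = 0.000329), held under every alternative in which the gene was tested. Hey1, a target known from endothelium, had 1, 0 and 5 reads in Normal, 8, 9 and 8 in Empty and 0, 7 and 1 in UTOpiA livers. Counts this low do not show a difference: with no filter on counts the log2 fold change in Empty against Normal was 1.32 (SE 1.14, edgeR adjusted p = 0.418).

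**Figure D1:**
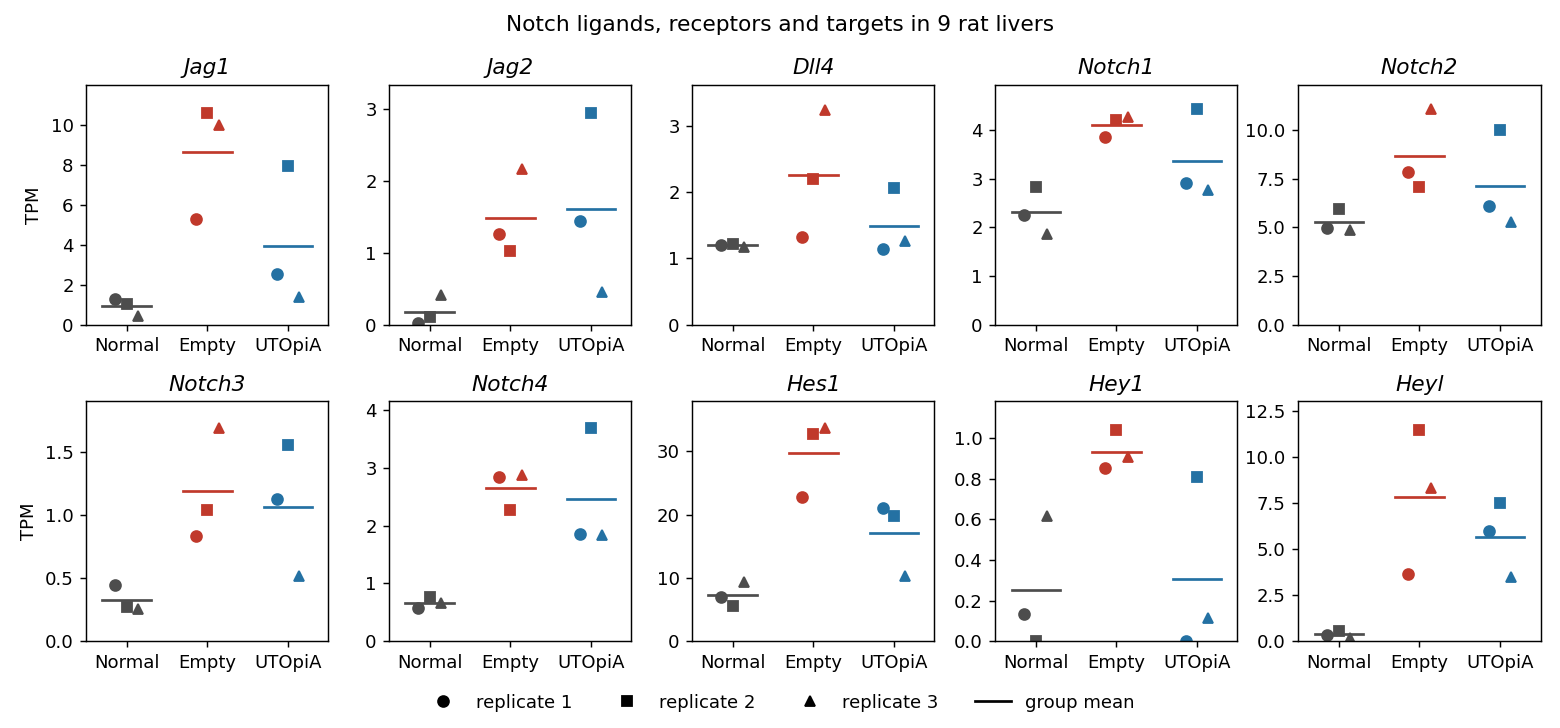
TPM of each of the 10 genes (y axis, linear, from 0, a different range in each panel) in the Normal, Empty and UTOpiA livers (x axis). Each point is 1 liver, its shape the replicate number, and the line is the group mean. Jag1, Jag2, Notch3, Notch4, Hes1 and Heyl lie higher in all 6 ACLF livers than in the Normal livers, as 35.7% of all tested genes do, and UTOpiA replicate 2 is the highest of its group for 9 of the 10 genes.

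Taking the comparisons as a whole, 6 of the 9 tested genes were called higher in Empty than in Normal (Jag1, Jag2, Notch3, Notch4, Hes1 and Heyl) and 0 lower, with a median log2 fold change of 1.47. Among all 14089 tested genes 20.7% were called higher and 11.1% lower, and the median was 0.04. Over Normal against all 6 ACLF livers, the difference in mean TPM had the smallest two-sided exact permutation p that 3 against 6 livers allow, 0.0238, for the same 6 genes, unadjusted for the 10 genes compared. The livers did not overlap for these genes, as for 35.7% of all tested genes, which were higher in TPM in all 6 ACLF livers, while 9.75% were lower in all 6. For Notch1 and Notch2 the exact p was 0.0476 in TPM, but 0.143 and 0.452 on the TMM scale. For Dll4 it was 0.119 and for Hey1 0.214.

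In UTOpiA against Empty, 0 of the 9 genes were called, and edgeR called 0% of all tested genes higher and 0% lower, the smallest adjusted p being 0.17. At an unadjusted p under 0.05 there were 1456 genes, and DESeq2 called 124 and limma on log2(TPM + 1) without a filter 3, with 0 of the 9 genes among them. Over all genes the count depended on single livers, with 48 called without Empty replicate 2 and 49 without UTOpiA replicate 2, and 0 of the 9 Notch genes in either case. These livers stood apart from their groups: albumin was 3.91% of counts in Empty replicate 2 against 1.65% and 1.58% in the other Empty livers, and 1.54% in UTOpiA replicate 2 against 3.59% and 3.31% in the other UTOpiA livers. Hes1 had the smallest adjusted p of the tested Notch genes. Its log2 fold change was -0.63 (95% interval -1.17 to -0.09, edgeR adjusted p = 0.439), and all 3 UTOpiA livers read below all 3 Empty livers in TPM and in TMM-scaled counts. On the TMM scale the margin was narrow. UTOpiA replicate 1 read 16.58 CPM (counts scaled to library size) and Empty replicate 1 read 16.96 CPM. In TPM, where the median of all tested genes was -0.20, 8.62% of them were likewise lower without overlap and 2.43% higher. That share is not given on the TMM scale. Hey1, which did not pass the count filter, was also lower without overlap on both scales, at few reads. Jag1 had the largest difference, a log2 fold change of -1.04 (95% interval -2.21 to 0.13, edgeR adjusted p = 0.529). Without UTOpiA replicate 2, the liver within the Empty range, it was -1.82 with an adjusted p of 0.0941. Without UTOpiA replicate 3 it was -0.71 (adjusted p = 0.812), without UTOpiA replicate 1 -0.84 (adjusted p = 0.891) and without Empty replicate 2 -0.84 (adjusted p = 0.546).

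For 3 of the receptors the intervals in UTOpiA against Empty were the narrowest of the 9 genes: log2 fold changes were -0.10 (95% interval -0.49 to 0.28) for Notch1, -0.11 (95% interval -0.51 to 0.29) for Notch2 and 0.05 (95% interval -0.47 to 0.57) for Notch4. A change of 2-fold lies outside these 3 intervals and that of Notch3, and inside those of Jag1, Jag2, Dll4, Hes1 and Heyl. Jag2 read 0.22 (95% interval -1.29 to 1.74), Dll4 -0.39 (95% interval -1.08 to 0.31), Heyl -0.30 (95% interval -1.18 to 0.57) and Notch3 -0.0032 (95% interval -0.81 to 0.81).

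In UTOpiA against Normal, which shares the Normal livers with the first comparison and the UTOpiA livers with the second, 5 of the 9 genes were called higher and 0 lower. Among all tested genes 18.2% were called higher and 6.81% lower. Heyl had a log2 fold change of 3.57 (SE 0.47, edgeR adjusted p = 0.000694) and Notch4 of 1.52 (SE 0.25, adjusted p = 0.00161), both called under every alternative that tested them. Jag2 (2.69, edgeR adjusted p = 0.0235) and Notch3 (1.33, adjusted p = 0.0218) were called, but not without UTOpiA replicate 2, when their adjusted p were 0.08 and 0.0741. Jag2 also lost its call without Normal replicate 1 (adjusted p = 0.0613) or 2 (0.0866), and Notch3 without Normal replicate 2 (0.0777), Normal replicate 3 (0.0769) or UTOpiA replicate 1 (0.06). With limma on log2(TPM + 1) Jag2 was not called with or without the filter (adjusted p = 0.0614 and 0.0702), nor was Notch3 without the filter (0.61, adjusted p = 0.0898). Jag1 (1.64, edgeR adjusted p = 0.0436) lost its call in 10 of 19 alternatives, among them leaving out any Normal liver or Empty replicate 3 (adjusted p = 0.0576 to 0.127) or UTOpiA replicate 2, which gave 0.85 with an adjusted p of 0.168. Hes1 passed the adjusted p but not the fold threshold, at 0.87 (SE 0.25, edgeR adjusted p = 0.0214), and was called with limma on log2(TPM + 1) and log2(TPM + 0.1) (1.09 and 1.18, adjusted p = 0.0193 and 0.0166), without Normal replicate 3 (1.10, adjusted p = 0.0163) or without UTOpiA replicate 3 (1.02, adjusted p = 0.0149).

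**Figure D2:**
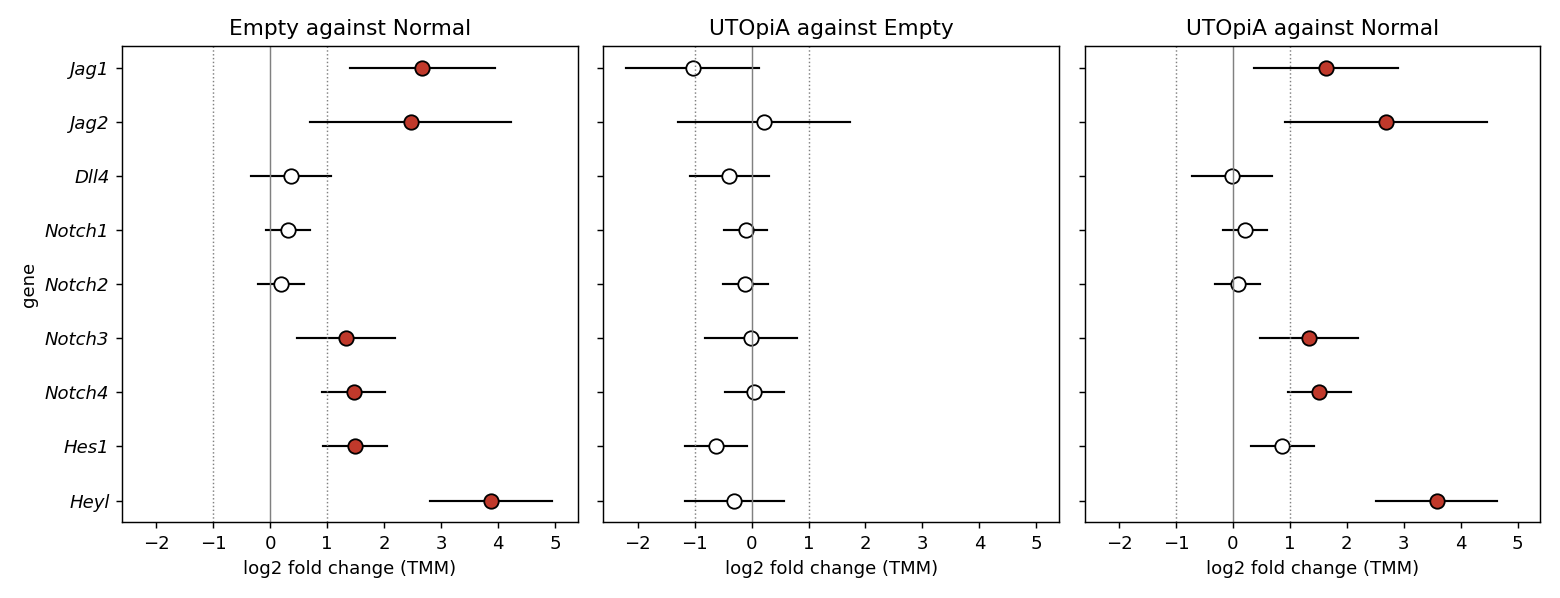
Log2 fold change with TMM scaling (x axis) of the 9 tested genes (y axis) in each of the 3 comparisons, from edgeR. Points are estimates, lines 95% intervals, filled points are called (adjusted p under 0.05 and above 2-fold), and dotted lines mark 2-fold. The called genes number 6, 0 and 5 from left to right, and Hes1 alone has an interval below 0 in the middle panel.

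The make-up of the receptors and of the ligands was also compared, as shares of summed TPM within each liver, a measure that a scaling of the whole library does not change. Summed receptor TPM was 8.57 ± 1.10 (SD, n = 3) in Normal and 15.3 ± 3.91 (SD, n = 6) in ACLF livers. The share of Notch4 was 7.03%, 7.80% and 8.67% in Normal livers, 18.5%, 15.5% and 14.5% in Empty and 15.5%, 18.7% and 17.8% in UTOpiA livers. It was thus higher in all 6 ACLF livers, by 8.91 percentage points in the mean (exact permutation test, two-sided p = 0.0238, n = 3 and 6). This share rests on Notch4 reads, which may not have been told apart from those of LOC103689965. The exact p of the shares are unadjusted. The share of Notch2 was lower by 10.2 percentage points in the mean, 61.4% ± 1.95 (SD, n = 3) against 51.2% ± 2.37 (SD, n = 6), without overlap (exact permutation p = 0.0238). Notch3 went from 3.83% ± 1.37 to 7.22% ± 1.72 (SD, n = 3 and 6, exact permutation p = 0.0476), and the share of Notch1 did not differ beyond the spread, at 26.9% ± 2.36 and 24.8% ± 2.72 (SD, n = 3 and 6, exact permutation p = 0.286).

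Among Jag1, Jag2 and Dll4, Dll4 held the largest share in 2 of 3 Normal livers and Jag1 in all 6 ACLF livers. Another ligand outside this set, Dll1, was measured at 1.97, 1.44 and 1.92 TPM in Normal, 2.15, 4.55 and 5.06 TPM in Empty and 3.33, 3.89 and 1.95 TPM in UTOpiA livers, above each of the 3 in every Normal liver. The share of Dll4 was 47.6%, 51.1% and 57.4% in Normal livers, 16.7%, 15.8% and 21.05% in Empty livers and 22.4%, 16.0% and 40.7% in UTOpiA livers. UTOpiA replicate 3 came nearest to Normal but did not reach it (ACLF mean 22.1% ± 9.51, SD, n = 6, exact permutation p = 0.0238). The share of Jag1 was 39.4% ± 15.1 (SD, n = 3) in Normal and 60.7% ± 11.8 (SD, n = 6) in ACLF livers (exact permutation p = 0.0952), and that of Jag2 8.53% ± 10.2 and 17.2% ± 7.25 (SD, n = 3 and 6, exact permutation p = 0.19). The summed TPM of the 3 ligands was 2.31 ± 0.252 (SD, n = 3) and 9.71 ± 5.05 (SD, n = 6). With Dll1 in the sum, an alternative chosen after seeing the data, the totals were 4.09 ± 0.365 and 13.2 ± 6.19 (SD, n = 3 and 6), and the share of Dll4 was 29.4% ± 2.53 and 15.3% ± 4.95 (SD, n = 3 and 6, exact permutation p = 0.0238). Between UTOpiA and Empty, 3 against 3 livers cannot give an exact p below 0.1. The share of Jag1 reached that value, with 49.5%, 61.3% and 44.6% in UTOpiA livers, all below the 67.3%, 76.7% and 64.9% in Empty livers.

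**Figure D3:**
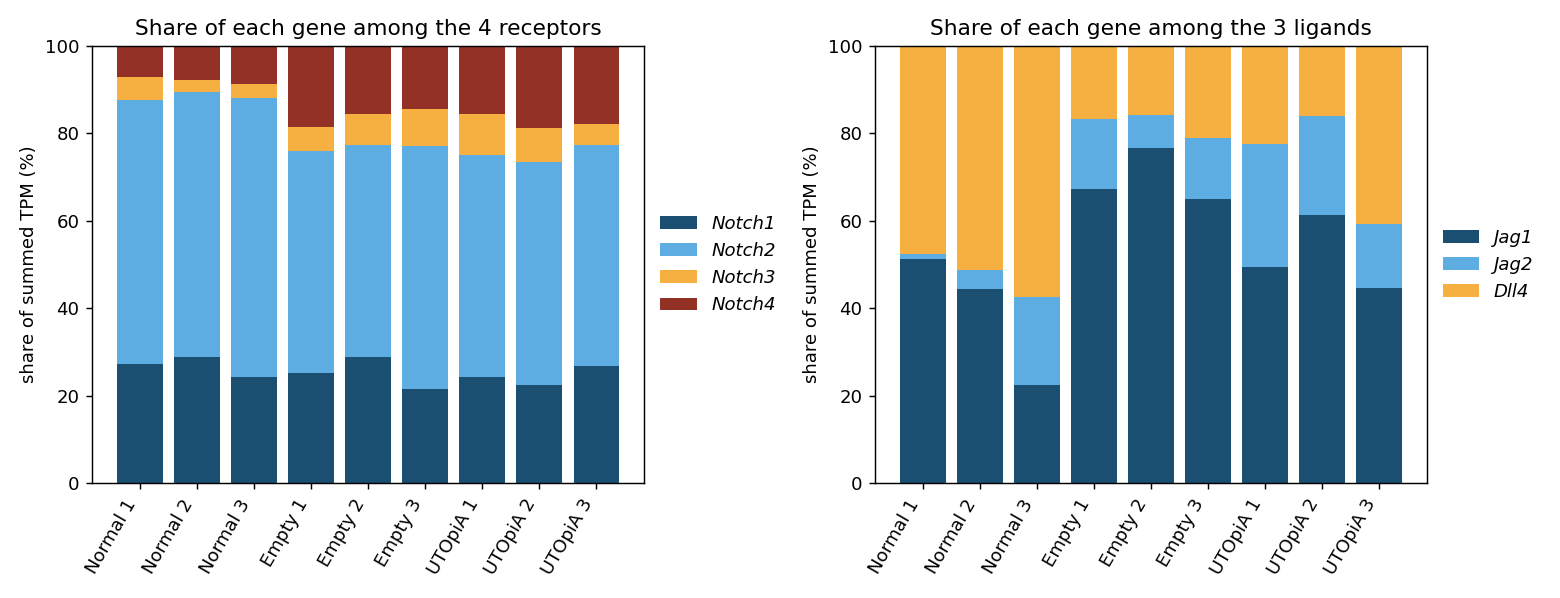
Share of each of the 4 receptors (left) and of Jag1, Jag2 and Dll4 (right) in the summed TPM of the genes shown, without Dll1, (y axis, 0 to 100%) in each of the 9 livers (x axis, group and replicate). The Notch4 segment spans 7.03% to 8.67% in Normal and 14.5% to 18.7% in ACLF livers, and the Dll4 segment is shorter in every ACLF liver than in any Normal one.

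Among the 3 targets, Heyl made up 4.71%, 9.12% and 1.95% of their summed TPM in Normal livers, 13.4%, 25.4% and 19.5% in Empty and 22.2%, 26.7% and 24.9% in UTOpiA livers, with Hes1 making up most of the remainder. This share was computed after the values had been seen and is given with no test.

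Markers of cell types that express Notch genes were set beside these results. Their TPM sums should be read against the median of all tested genes, which was 0.54 log2 higher in Empty than in Normal. Among all tested genes 20.7% were called higher and 11.1% lower in Empty against Normal. The summed TPM of 12 cholangiocyte markers ranged from 49.0 to 64.8 in Normal, 423 to 853 in Empty and 199 to 564 in UTOpiA livers. Of the 11 tested, 9 were called higher in Empty than in Normal, among them Krt19, a keratin of bile duct epithelium, at a log2 fold change of 5.07 (edgeR adjusted p = 0.000784). For 12 stellate and mural markers the range was 125 to 147 in Normal, 753 to 1138 in Empty and 637 to 1237 in UTOpiA livers, and 9 of 12 were called higher, Pdgfrb, a receptor of pericytes and stellate cells, by 2.51 (edgeR adjusted p = 0.000138). The 11 endothelial markers in the table summed to 112 to 124, 168 to 218 and 145 to 181 TPM, with 4 called higher and 1 lower: Cdh5, the cadherin of endothelial junctions, rose by 1.03 and Kdr, a VEGF receptor, fell by 1.54 on the log2 scale (edgeR adjusted p = 0.000579 and 0.000624). Hepatocyte markers, which check the tissue, summed to 149200 to 161600 TPM in Normal, 31290 to 56940 in Empty and 36970 to 57230 in UTOpiA livers, with 5 of 10 called lower in Empty. The part of these cell types in the Notch results was not tested.

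Setting each gene against 1 marker list, as a description, gave pictures that differed between genes, and the sums depend on their abundant members. Per 1000 TPM of cholangiocyte markers, Jag1 was 9.35 to 25.1 TPM in Normal, 11.7 to 18.0 in Empty and 6.95 to 14.1 in UTOpiA livers, so the groups overlapped. Notch2 was 91.4 to 99.6 in Normal, 12.03 to 18.5 in Empty and 17.7 to 26.4 in UTOpiA livers. Hes1 was 85.5 to 192 in Normal, 39.5 to 55.8 in Empty and 35.1 to 73.2 in UTOpiA livers. Against the single cholangiocyte markers above 0 in every liver, Notch2 was lower in all ACLF livers for 8 of 9, Hes1 for 7 and Jag1 for 6. Jag1 overlapped or was higher for the others. The mean TPM of these markers in Empty was 1.18 (Slc4a2) to 278 (Krt7) times that in Normal. A gene that rose by less than a marker thus read as lower against it. Against Slc4a2, Notch2, Hes1 and Jag1 were all higher in every ACLF liver. These counts over single markers were made after the values had been seen.

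Per 1000 TPM of endothelial markers, Notch4 was 4.94 to 6.17 TPM in Normal, 10.4 to 17.1 in Empty and 10.3 to 22.7 in UTOpiA livers, and was higher in every ACLF liver. That sum includes Lyve1, Kdr and Stab2, sinusoidal endothelial genes whose mean TPM in Empty was 1.07, 0.489 and 0.506 times that in Normal. The Stab2 ratio rests on Empty replicate 2, with 1.73, 14.2 and 1.80 TPM in Empty against 10.8, 13.6 and 10.7 TPM in Normal livers. Against single markers of the list, Notch4 was higher in every ACLF liver for 6 of 11 and overlapped for 5, Cdh5, Vwf, Tie1, Egfl7 and Esam, of which Egfl7 had a mean TPM 3.63 times as high in Empty as in Normal. Per 1000 TPM of the whole list, Notch1 was 16.7 to 22.9, 19.3 to 25.4 and 16.1 to 27.3, and Dll4 9.80 to 10.5, 7.49 to 19.3 and 6.33 to 12.7, in the same order of groups, with overlap in both. Per 1000 TPM of stellate and mural markers, Heyl was 1.59 to 3.79 in Normal, 4.82 to 11.1 in Empty and 5.45 to 6.41 in UTOpiA livers. Heyl was higher in every ACLF liver relative to the sum, but against single markers it was so for 5 of the 11 above 0 in every liver and overlapped for 6, among them Rgs5, Col1a1 and Des, whose mean TPM was 19.9, 26.4 and 34.3 times as high in Empty as in Normal. Relative to the sum, Notch3 was 1.86 to 3.38 in Normal, 0.913 to 2.24 in Empty and 0.815 to 1.26 in UTOpiA livers.

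**Figure D4:**
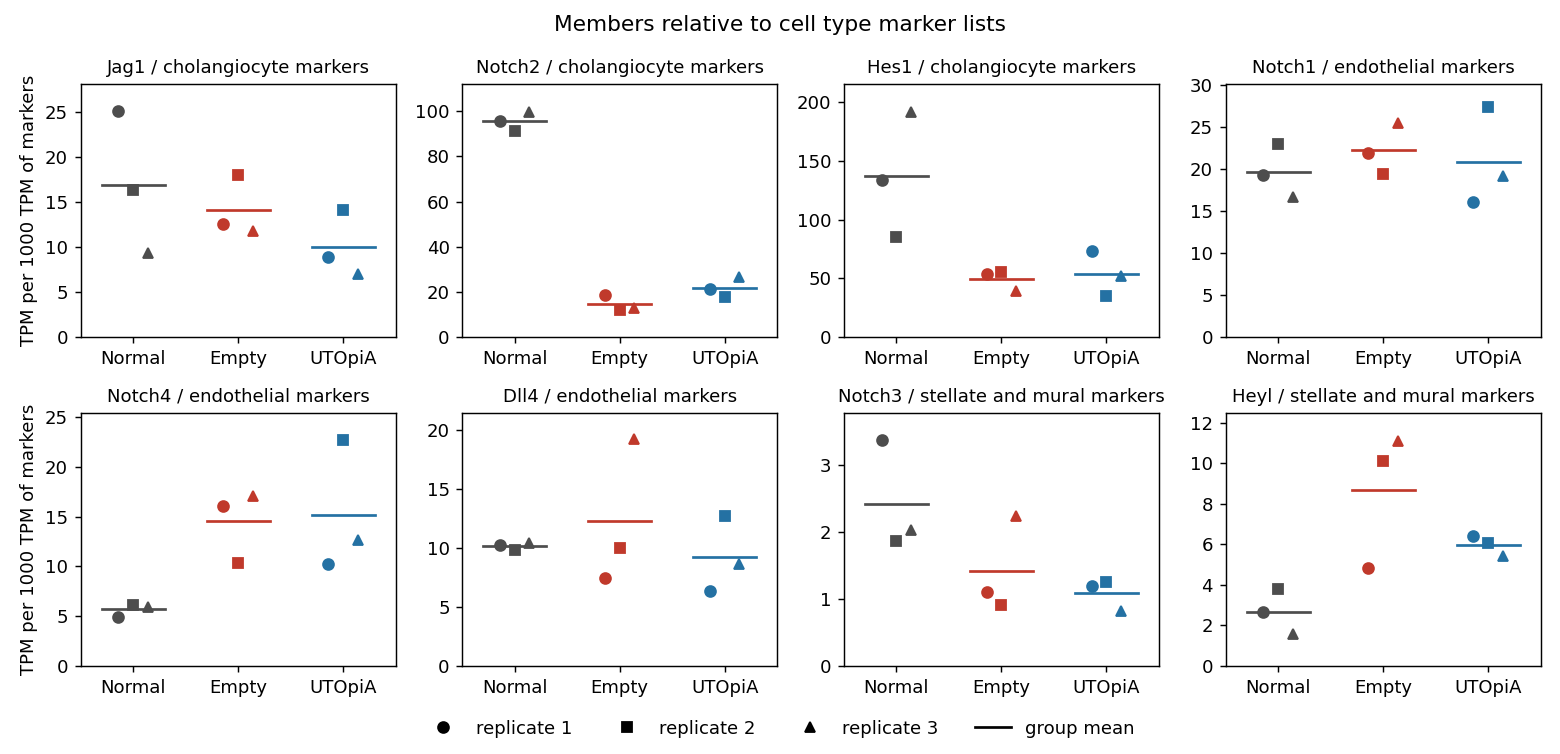
TPM of 8 of the genes per 1000 TPM of a cell type marker list (y axis, linear, from 0) in the 3 groups (x axis). Points are livers, with their shape the replicate number, and lines are group means. Notch4 and Heyl are higher in all 6 ACLF livers than in Normal livers, Notch2 and Hes1 are lower in all 6, and Jag1, Notch1, Dll4 and Notch3 overlap between groups.

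The remaining pathway was followed with a list of 52 other genes by role, 50 of which were in the table and 43 tested. In Empty against Normal 10 were called higher and 2 lower, with a median log2 fold change of 0.22. Over all genes 20.7% were called higher and 11.1% lower. In UTOpiA against Empty 0 were called in either direction, and in UTOpiA against Normal 6 were called higher (Neurl1, Mfng, Psen2, Maml2, Numbl and Dtx3) and 2 lower (Numb and Hes6), beside 18.2% and 6.81% of all genes.

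On the side of the ligand-bearing cell, Epn2, an epsin of ligand endocytosis, rose by 1.13 in Empty livers (edgeR adjusted p = 0.00212), and Neurl1, a ubiquitin ligase of ligands, had 0, 0 and 0 reads in Normal, 17, 14 and 32 in Empty and 10, 23 and 3 in UTOpiA livers. Against a floor of 3 counts per library in Normal, the group mean of Neurl1 was at least 4.22-fold higher in Empty and at least 2.71-fold higher in UTOpiA. This bound is for the means, and UTOpiA replicate 3, with 3 reads, was itself at the floor. Epn2 and Neurl1 were 2 of 5 tested genes of ligand endocytosis. Mib1 (-0.92, edgeR adjusted p = 0.00222) and Epn1 (-0.45, adjusted p = 0.0309) were lower in Empty against Normal, by less than 2-fold. Of the other ligands Dll1 alone was tested, at 0.60 (edgeR adjusted p = 0.133). Among enzymes that act on the receptor, Mfng, a Fringe glycosyltransferase, rose by 1.47 (edgeR adjusted p = 0.0086) and Adam10, the sheddase that makes the first cut, by 1.01 (adjusted p = 0.00279), 1 of 5 and 1 of 3 tested members of their roles. Pofut1, in the same role as Mfng, was lower by less than 2-fold (-0.97, edgeR adjusted p = 0.00105).

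None of the 6 subunits of gamma-secretase was called in Empty against Normal at the edgeR thresholds, and Psen2, one of its 2 presenilins, was called in UTOpiA against Normal (1.04, edgeR adjusted p = 0.0259). In the nucleus, the coactivator Maml2 rose by 1.41 (edgeR adjusted p = 0.0141) and the Groucho-type corepressor Tle3 by 1.49 (adjusted p = 0.0119). They were 1 of 5 and 1 of 8 tested members of their roles. Among regulators of turnover, the Deltex ubiquitin ligases Dtx2 and Dtx3 rose by 1.28 and 1.47 (edgeR adjusted p = 0.00256 and 0.00313). Numb, an inhibitor of Notch, fell by 1.04 on the log2 scale in Empty against Normal (edgeR adjusted p = 0.00101), while its relative Numbl was called higher, with 0, 3 and 0 reads in Normal livers and 55, 44 and 92 in Empty livers.

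Of the remaining Hes, Hey and feedback genes in the list, Nrarp and Hes6 were tested. Nrarp, a target that feeds back on the receptor, rose by 1.14 in Empty against Normal (edgeR adjusted p = 0.0413). Hes6, a Hes family member known to oppose Hes1 and not to be induced by Notch, stood at 429, 414 and 473 TPM in Normal, 23.2, 115 and 29.1 TPM in Empty and 196, 44.4 and 51.8 TPM in UTOpiA livers. It fell by 3.49 on the log2 scale in Empty against Normal (edgeR adjusted p = 0.00649), and its level in UTOpiA overlapped that in Empty. Of the 10 hepatocyte markers 5 were called lower in the same comparison, Alb among them at -3.08 and Tat not, at -0.04 (edgeR adjusted p = 0.00226 and 0.934), and their part in this result was not tested.

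**Figure D5:**
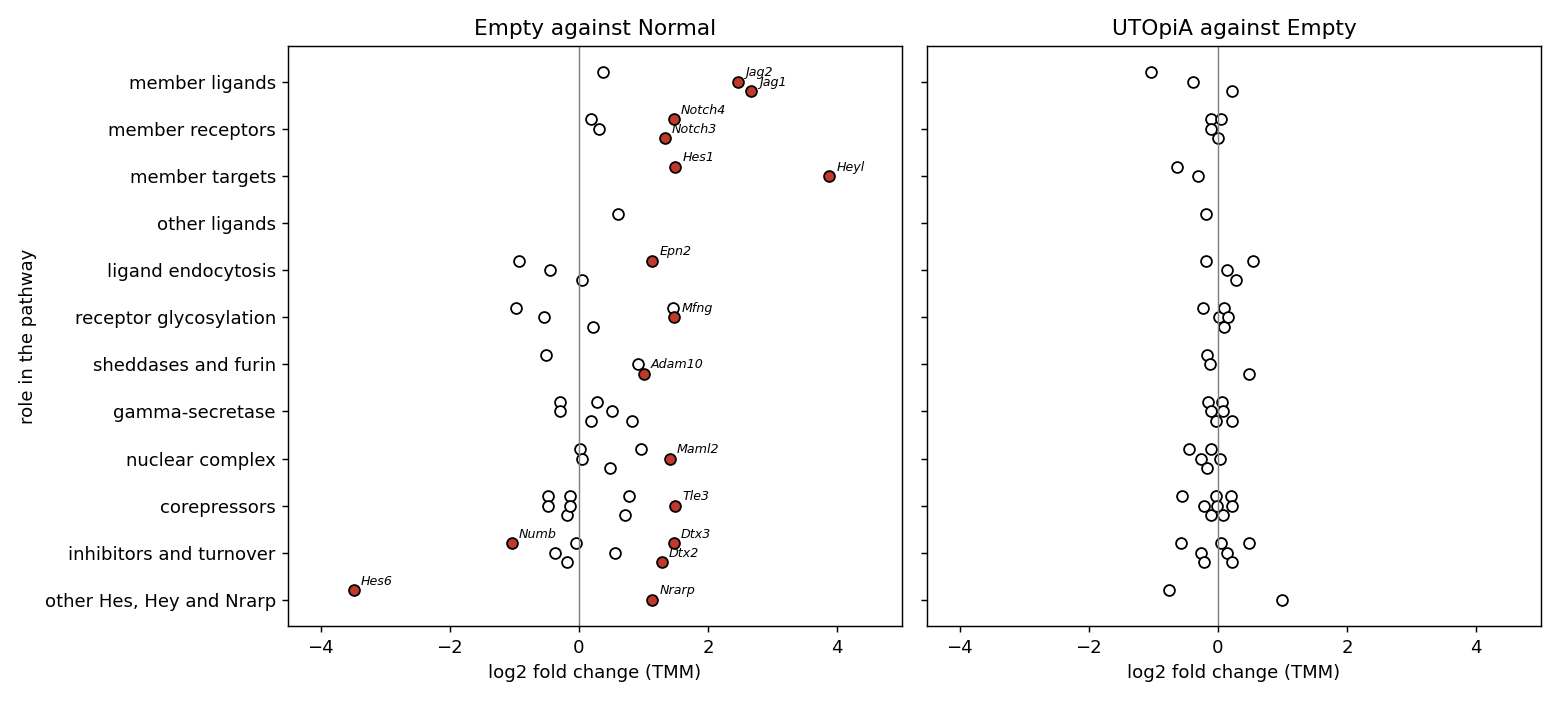
Log2 fold change with TMM scaling (x axis) of the tested Notch genes and of the other pathway genes, grouped by role (y axis), in Empty against Normal (left) and UTOpiA against Empty (right). Each point is 1 gene, filled and named where called, with Neurl1 and Numbl left out because their Normal livers are at or under 3 reads. On the left 8 other pathway genes are drawn as called higher, which with the 2 left out makes 10 of 43, beside 20.7% of all genes, and on the right none is called.

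Genes with the most similar pattern over the 9 livers were found by the root mean square difference in TMM-scaled log2 CPM (counts scaled to library size), each centred on the mean of the Normal livers. For Jag1 these were Fgfr1 (0.326), Lmcd1 (0.34) and Pkib (0.353), and for Heyl they were Tnfrsf12a (0.373), Anxa5 (0.377) and Pdgfd (0.379). For Hes1 they were Amdhd2 (0.214), Fam49a (0.23) and RGD1359158 (0.243), and for Notch4 they were Paqr8 (0.182), Pacs1 (0.196) and Cbx3 (0.201). Notch1 and Notch2, neither called in any comparison, had close neighbours, at 0.104 (Tmx3) and 0.106 (Apbb2). Of the tested Notch genes each was the nearest to the other (0.214). Of the marker lists, the nearest to Jag1 was Mcam (0.582), an adhesion molecule of mural and endothelial cells, and the nearest to Hes1 was Esam (0.246), of endothelium. The nearest to Notch1, Notch2 and Dll4 was Tek, an endothelial receptor, at 0.249, 0.296 and 0.44. The nearest to Notch3 was the endothelial Esam (0.346), and the nearest to Jag2 was Pdgfrb (0.827), from the stellate and mural list.

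The position of each gene was given in the deposited table, on rat build rn6 per the labels. Jag1 lies at chr3:130079361-130114770 on the minus strand, Dll4 at chr3:111135021-111145986 on the plus strand and Notch1 at chr3:3905453-3951025 on the minus strand. Heyl lies at chr5:140923914-140940905 on the plus strand, Hes1 at chr11:74312806-74315248 on the minus strand and Notch4 at chr20:4329811-4353785 on the plus strand. Jag2 lies at chr6:137711155-137733026 and Notch3 at chr7:14138495-14189688, both on the minus strand, and Notch2 at chr2:200187179-200320215 and Hey1 at chr2:95320283-95322696, both on the plus strand. Short annotated genes overlap Jag2 and Notch3, with at most 1 and 10 counts in any liver. All 10 are annotated as protein coding, and values are over whole genes.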

How the data were processed

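Liver RNA of 9 rats was measured by bulk RNA-seq. Per the labels, the authors trimmed reads with Trimmomatic, aligned them with HISAT2 to rn6 and counted them with featureCounts, while the study's methods name Cutadapt and a mouse build. The deposited table, with rat Ensembl genes, holds raw counts and TPM values as the authors made them. Neither the strand setting nor the TPM method is given in the sources used here.

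Counts were analysed in R 4.3.3 with edgeR 4.0.16 (TMM, filterByExpr over 3 groups, robust quasi-likelihood test, Benjamini-Hochberg over 14089 genes), with all 9 libraries in the fit. Alternatives used DESeq2 1.42.0, limma 3.58.1 on log2(TPM + 1) and log2(TPM + 0.1), other filters, and each liver left out. TPM and shares were compared by exact permutation tests. Scripts were tested on simulated data. The replicates are separate rats per the labels.

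The 10 genes, pathway list and marker lists were chosen with earlier results of these data known. Named are the 10 genes, pathway genes called in any comparison, markers beside a Notch gene and the 3 genes of most similar pattern.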

Additional observations from a re-analysis of the deposited data

How the results depend on the processing

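The number of the 9 tested Notch genes called in Empty against Normal stayed between 4 and 6 and that in UTOpiA against Empty at 0 under every alternative. In UTOpiA against Normal it was 5, and 3 with at least 10 counts in every library, with limma on log2(TPM + 1) and with limma without a filter on TPM, and 2 to 6 when 1 liver was left out, the 2 coming without Normal replicate 2 and without UTOpiA replicate 2. No called value changed sign. Over all genes, 4476 were called in Empty against Normal, against 2823 with at least 10 counts in every library and 6824 with no fold threshold. In UTOpiA against Normal 3522 were called, against 2085 and 5571. In UTOpiA against Empty 0 were called, against 124 with DESeq2 and 3 with limma on log2(TPM + 1) without a filter, and 0 to 49 when 1 liver was left out: 48 without Empty replicate 2, 1 without Empty replicate 3 and 49 without UTOpiA replicate 2. The cause was not tested. Under the stricter filter 11342 genes were tested, against 14089.

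The shares kept their direction when 1 liver was left out: Notch2 differed by -11.1 to -9.13 percentage points between ACLF and Normal, Notch4 by 8.52 to 9.38 and Dll4 by -33.7 to -27.2. Leaving out a Normal liver makes 0.0714 the smallest exact p that 2 against 6 livers allow, so the threshold cannot then be passed. With a replicate block, the Notch genes called were 6, 0 and 5 and all genes called 4278, 0 and 3241 in the 3 comparisons. The replicate numbers did not pair the livers: the 9 same-numbered pairs had correlations of -0.183 to 0.0638, and 1 of 9 livers correlated best with its own number. Depth limits Hey1 and, in Normal livers, Jag2, Notch3 and Heyl, which had 21, 59 and 43 reads over the group.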

Other observations

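A broader list, the genes annotated to the term Notch signaling pathway in the deposited table without the 10 genes, was examined after the data had been seen. It holds 87 genes, of which 61 were tested. In Empty against Normal 19 were called higher and 2 lower, with a median log2 fold change of 0.57, beside 20.7% and 11.1% of all genes. In UTOpiA against Empty 0 were called by edgeR, and in UTOpiA against Normal 16 were called higher and 0 lower, beside 18.2% and 6.81% of all genes. Counts for leukocyte and erythroid markers were as follows: 6 neutrophil markers were tested and 6 called higher in Empty than in Normal, as were 7 of 10 macrophage and 5 of 7 T cell markers and 0 of 3 B cell markers. Of 5 erythroid markers 4 were called higher and 1 lower. Their part in the Notch results was not tested. The marker nearest in pattern to Notch4 was C1qa (0.31), a macrophage gene, and the nearest to Heyl was Ahsp (0.563), an erythroid gene.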
